A study of Mus musculus with 32 samples.

Results

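Expression of TGF-beta and activin signaling genes was compared across 32 murine mesothelioma tumors. The set was 10 genes chosen by symbol: the ligand genes Tgfb1, Tgfb2, Tgfb3, Inhba and Inhbb, the receptor genes Tgfbr1, Tgfbr2 and Tgfbr3, the activin antagonist Fst and the matrix protein gene Ltbp2. Of these 10, 7 matched a row of the 39676 genes in the count table and passed the filter on low counts in every fit, while Tgfb3, Inhba and Fst are not analysed here.

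TGF-beta is secreted as a latent dimer that is stored in the extracellular matrix by latent TGF-beta binding proteins and released by integrins, proteases or mechanical force. The free ligand is bound by the type II receptor TGFBR2, which recruits and phosphorylates the type I receptor TGFBR1, and SMAD2 and SMAD3 then carry the signal to the nucleus with SMAD4. Activins are dimers of inhibin beta chains that use their own receptors but the same SMAD proteins, and in mesothelioma both ligand families are known for their effects on matrix deposition, invasion and immune suppression.

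The tumors came from the cell lines AB1 and AE17, both labelled murine mesothelioma. AB1 cells were grown in BALB/c mice and AE17 cells in C57BL/6 mice, so the cell line and the host strain cannot be told apart. Each line was injected either into the pleural space (intrapleural, IPL) or under the skin of the flank (subcutaneous, SC), giving 4 groups of 8 tumors named by the line and the site (for example AB1 IPL). The dose was 500000 cells of AB1 or 1000000 of AE17, in 200 µL of PBS for IPL and 100 µL for SC tumors, and the mice were female, aged 8 to 10 weeks and untreated. Whole tumors were taken at day 10 and the surrounding tissue was trimmed away before polyA RNA was extracted. Because host cells and tumor cells were sequenced together, fewer cells of a type and less RNA per cell cannot be told apart in any value below.

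The 250 bases before the start of Tgfb1 and of Tgfb2 are shown because these 2 genes encode ligands of the same receptors and their levels followed different patterns across the groups. Sequences are RefSeq windows on GRCm38.p6, written 5′ to 3′ on the strand of the gene, at chr7:25686752-25687001 on the plus strand for Tgfb1 and at chr1:186705990-186706239 on the minus strand for Tgfb2. Capitals mark a GC box, an E-box or a TATA box on either strand.
Tgfb1: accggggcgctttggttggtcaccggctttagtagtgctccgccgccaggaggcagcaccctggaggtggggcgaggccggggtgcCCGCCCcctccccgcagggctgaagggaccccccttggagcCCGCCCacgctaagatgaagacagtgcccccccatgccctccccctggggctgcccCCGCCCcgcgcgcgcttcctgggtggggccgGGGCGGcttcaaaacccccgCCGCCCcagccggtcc
Tgfb2: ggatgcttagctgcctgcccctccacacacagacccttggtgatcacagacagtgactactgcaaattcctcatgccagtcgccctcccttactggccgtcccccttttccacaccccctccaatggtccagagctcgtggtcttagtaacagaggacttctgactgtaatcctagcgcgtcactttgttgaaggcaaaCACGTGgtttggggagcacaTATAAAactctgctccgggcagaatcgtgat
The Tgfb1 window was 75.2% G or C and held 5 GC boxes (GGGCGG or its reverse complement) and none of the other motifs searched. The Tgfb2 window was 53.6% G or C and held no GC box, 1 TATA box (TATAAA), 1 E-box (CACGTG) and 2 copies of the SMAD core (GTCTG). Neither window held an AP-1 site (TGANTCA), a CRE core (TGACGT) or a TEAD site (GGAATG), and no matches overlapped each other. Among 32851 windows of this length, 32.7% held a GC box, 12.4% a TATA box, 6.02% an E-box, 42.2% a SMAD core, 6.75% an AP-1 site, 6.47% a CRE core and 12.6% a TEAD site, and the median GC share was 52.4%. A match describes letters and not a bound site.

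Libraries held between 15432258 and 20649645 counts on genes. Levels are counts per 1000000 counts (CPM) after scaling by TMM factors, which correct each library for its composition. A limit of 3 counts per library, which covers counting error only, corresponds to 0.148 CPM in AB1 IPL tumor 1, and every value of the 7 genes in every tumor was above 3 counts. Sequencing lanes, read from the names of the alignments, were unequal: all 8 AB1 IPL tumors were on lane 3, 2 AB1 SC tumors on lane 3 and 6 on lane 2, 5 AE17 IPL tumors on lane 2 and 3 on lane 1, and all 8 AE17 SC tumors on lane 1. Tumors AB1 IPL 2, AB1 IPL 4 and AE17 IPL 5 were least like their groups (median correlations of 0.951, 0.955 and 0.966). In AB1 IPL tumor 4, genes with at least 6 kb of exon stood 0.25 below the other tumors of its group on the log2 scale (median) and genes under 2 kb stood 0.21 above, against −0.20 to 0.08 and −0.09 to 0.13 in the other 31 tumors. Of 6 mesothelial markers 5 had a row, and their summed CPM had medians of 1.19 in AB1 IPL, 1.91 in AB1 SC, 6.23 in AE17 IPL and 0.240 in AE17 SC tumors. The marker without a row was Msln, the mesothelin gene. The 5 measured markers were thus low in most AB1 tumors and in AE17 SC tumors, and AE17 IPL tumors reached a sum of 16.5 CPM. Muc16 was at 0 in all 8 AB1 SC tumors, and AB1 IPL tumor 2 stood apart with a summed 71.0 CPM.

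When levels were divided by exon length, Tgfbr2 had the highest level of the 7 genes in all 4 groups, with medians between 29.6 and 36.3 CPM per kb. Tgfb1, Tgfbr1 and Tgfbr3 followed in each group, with medians between 14.2 and 25.8 CPM per kb. Their ranges overlapped in AB1 IPL and AE17 SC tumors. In AB1 SC tumors Tgfb1 (16.4 to 19.1 CPM per kb) lay above Tgfbr1 (12.7 to 15.2) and overlapped Tgfbr3, and in AE17 IPL tumors the lowest Tgfb1 value, 19.1 CPM per kb, was above the highest of Tgfbr1, 18.8, and of Tgfbr3, 16.9. Ltbp2 came after them in each group, with medians between 6.36 and 8.90 CPM per kb. The last places went to Inhbb and Tgfb2, and their order depended on the model. Inhbb had a median of 1.87 CPM per kb in AB1 SC tumors and Tgfb2 0.123, whereas in AE17 SC tumors Inhbb had 3.23 and Tgfb2 6.31. The share of Tgfb2 in the length-scaled sum of Tgfb1 and Tgfb2 had a median of 0.717% in AB1 SC tumors (range 0.489 to 0.909), 3.17% in AB1 IPL tumors (1.25 to 5.14), 17.7% in AE17 IPL tumors (12.7 to 27.2) and 22.7% in AE17 SC tumors (15.6 to 44.1). Tgfb1 was therefore the more abundant of these ligand transcripts in all 32 tumors.

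**Figure D1:**
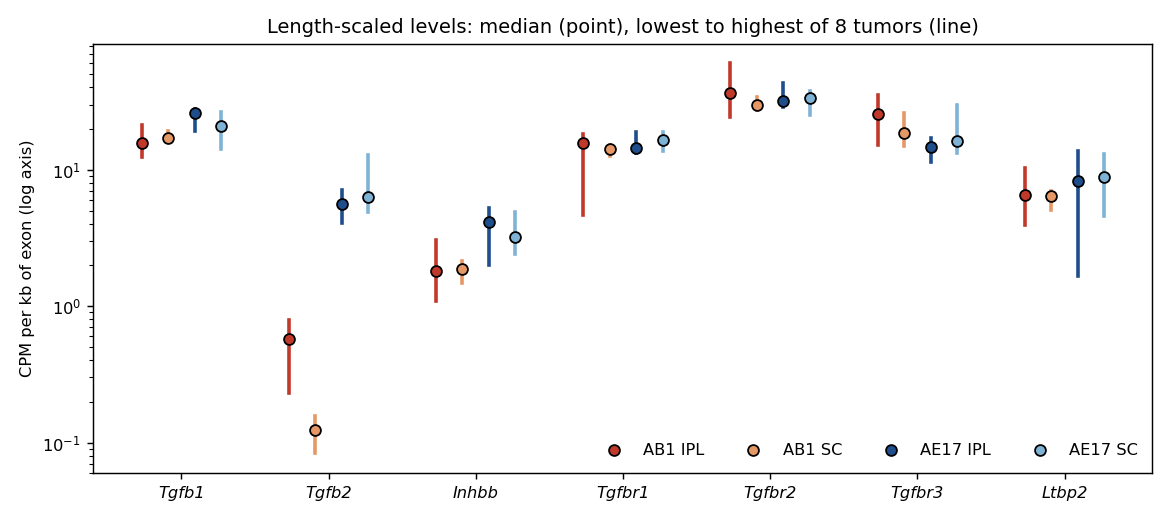
Length-scaled level (CPM per kb of exon, log axis) of the 7 genes, with the median of 8 tumors as a point and the lowest to highest tumor as a line, for the 4 groups. Tgfbr2 is highest in each group, and Tgfb2 spans from 0.123 CPM per kb (median of AB1 SC) to 6.31 (median of AE17 SC).

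Tgfb2 encodes TGF-beta 2, a ligand that needs the co-receptor betaglycan for efficient binding to TGFBR2. The gene lies at chr1:186622792-186705989 on the minus strand (GENCODE M21, GRCm38). In AB1 IPL tumors Tgfb2 ranged from 1.34 to 4.57 CPM with a median of 3.33. In AB1 SC tumors it ranged from 0.482 to 0.909 CPM with a median of 0.714. All 8 AB1 IPL tumors were above all 8 AB1 SC tumors, a separation found for 5.03% of all genes tested in this comparison. Tgfb2 rose 4.21-fold in AB1 IPL relative to AB1 SC tumors (log2 fold change 2.07, SE 0.25, edgeR quasi-likelihood test with Benjamini-Hochberg adjustment over all genes, adjusted p = 3.92e-05). It was the 1 gene of 7 to pass the test in AB1, where 23% of all genes passed. These values rest on few reads, between 8 and 18 counts per AB1 SC tumor and between 23 and 86 per AB1 IPL tumor.

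In AE17 tumors the level of Tgfb2 was higher and its site difference took the opposite sign without passing the test. AE17 IPL tumors ranged from 23.5 to 41.2 CPM with a median of 32.2, and AE17 SC tumors from 28.5 to 74.2 CPM with a median of 36.6. The groups overlapped in 7 of the 8 AE17 IPL tumors, and AE17 SC tumors 6 and 8 stood highest at 74.2 and 65.0 CPM. The log2 fold change was −0.36 (SE 0.20, 95% interval −0.78 to 0.06, edgeR adjusted p = 0.263). The site effects of the models differed by 2.45 on the log2 scale (SE 0.33, edgeR interaction test, adjusted p = 2.89e-05). The interaction was called for 2 of the 7 genes and for 20.5% of all genes (11.9% with a higher IPL to SC difference in AB1 than in AE17 and 8.62% with a lower one).

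The Tgfb2 difference in AB1 was also examined by lane. With the lane as a covariate, Tgfb2 had a log2 fold change of 1.804 (edgeR adjusted p = 0.0361) and the interaction was 2.26 (edgeR adjusted p = 0.0379). All AB1 IPL tumors were on lane 3, so the lane-adjusted site difference in AB1 rests on the 2 AB1 SC tumors of that lane. In AE17 it rests on the 3 IPL tumors of lane 1. The fit on lane 3 alone uses the same contrast and is not a separate check. On lane 3 alone, with 8 AB1 IPL and 2 AB1 SC tumors, the log2 fold change was 1.76 and did not pass the test (edgeR adjusted p = 0.158), and the SC tumors, at 0.788 and 0.909 CPM, lay below all IPL tumors. On lane 1 alone, with 3 AE17 IPL and 8 AE17 SC tumors, Tgfb2 had a log2 fold change of −0.45 (edgeR adjusted p = 0.467).

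**Figure D2:**
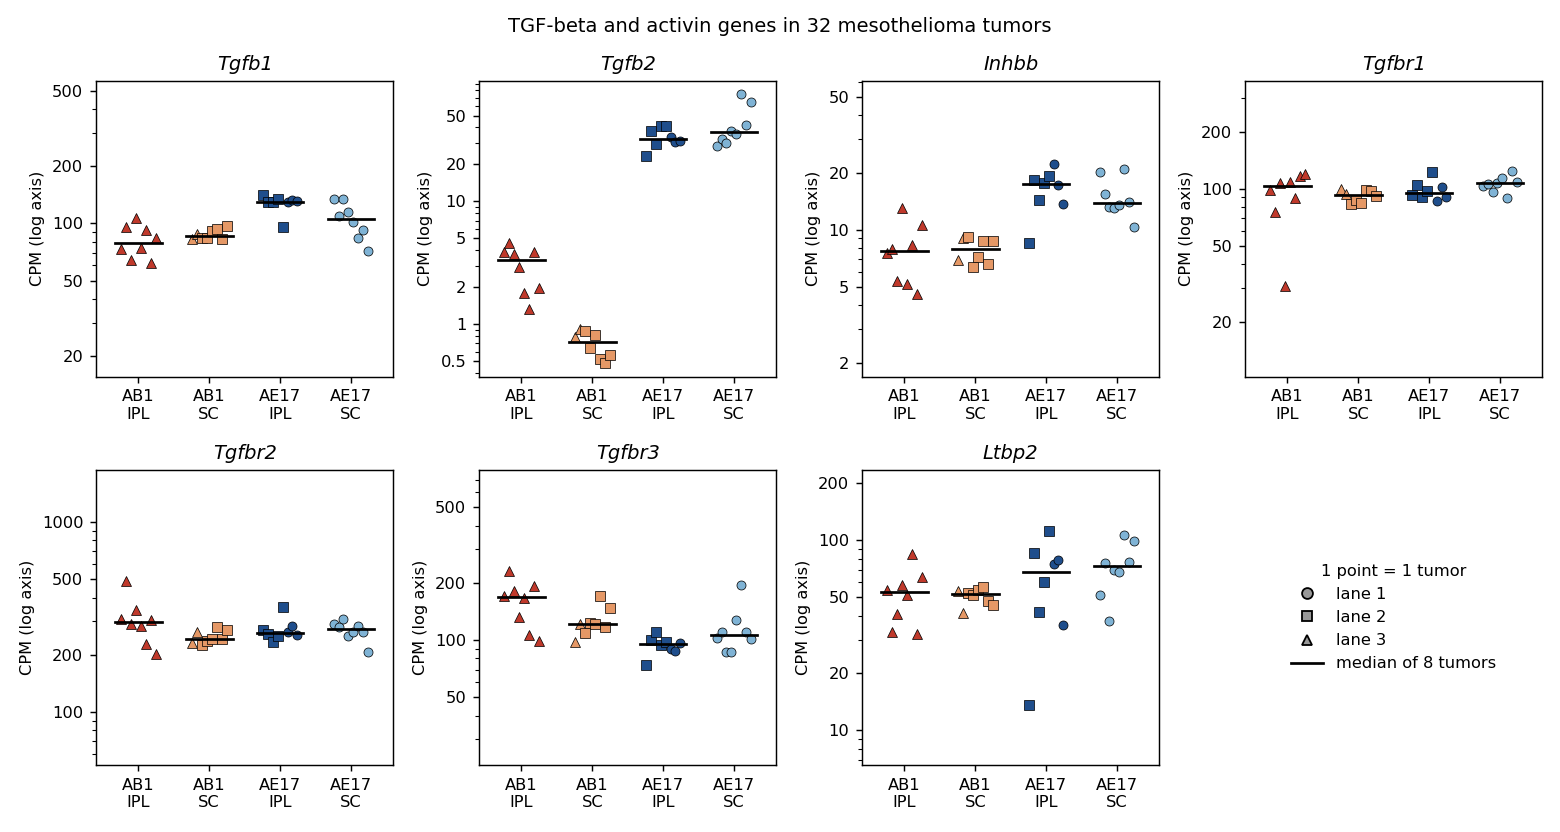
CPM (log axis) of the 7 genes in each tumor, by group, with the shape of a point giving the sequencing lane and the bar the median of 8 tumors. In the Tgfb2 panel the AB1 IPL tumors, between 1.34 and 4.57 CPM, lie above the AB1 SC tumors, between 0.482 and 0.909 CPM, and both lie below all AE17 tumors.

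Tgfb1 encodes TGF-beta 1, the ligand best known in fibrosis and immune regulation, and lies at chr7:25687002-25705077 on the plus strand. AB1 IPL tumors ranged from 62.1 to 107 CPM (median 79.0) and AB1 SC tumors from 82.9 to 96.4 CPM (median 85.8). The IPL tumors spread on both sides of the SC tumors, with 4 below and 1 above all of them. The log2 fold change was −0.12 (SE 0.10, 95% interval −0.33 to 0.09, edgeR adjusted p = 0.424). AE17 IPL tumors ranged from 96.2 to 141 CPM (median 130.2) and AE17 SC tumors from 71.8 to 134 CPM (median 105). Here 7 of 8 IPL tumors were above the SC median, and tumor 5, at 96.2 CPM, was the exception. The log2 fold change in AE17 was 0.28 (SE 0.12, 95% interval 0.04 to 0.52, unadjusted p = 0.0256, edgeR adjusted p = 0.139), and the difference of site effects was −0.38 (SE 0.16, edgeR adjusted p = 0.0841). The latter passed when any 1 of AB1 IPL 4, AE17 IPL 5, AE17 SC 1 or AE17 SC 3 was left out (−0.45 to −0.43, edgeR adjusted p between 0.0353 and 0.0434). Without the 3 libraries least like their groups, Tgfb1 was lower in AB1 IPL than in AB1 SC tumors, at −0.25 (edgeR adjusted p = 0.0313) and the difference of site effects was −0.53 (edgeR adjusted p = 0.00816). AE17 SC tumors 6 and 8, which had the most Tgfb2, had 84.0 and 71.8 CPM of Tgfb1, the lowest values of their group.

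Inhbb encodes the inhibin beta B chain, which forms activin B, and lies at chr1:119415465-119422248 on the minus strand. AB1 IPL tumors ranged from 4.60 to 13.04 CPM (median 7.74) and AB1 SC tumors from 6.33 to 9.19 CPM (median 7.96). AE17 IPL tumors ranged from 8.49 to 22.2 CPM (median 17.5) and AE17 SC tumors from 10.3 to 20.9 CPM (median 13.8). IPL and SC tumors overlapped within both models, and the AE17 tumors were the higher ones. The site difference was −0.02 on the log2 scale in AB1 (95% interval −0.42 to 0.38, edgeR adjusted p = 0.953) and 0.13 in AE17 (95% interval −0.25 to 0.50, edgeR adjusted p = 0.7).

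No receptor gene passed the test between the sites in either model. Tgfbr1, the type I receptor kinase gene at chr4:47353222-47414931 on the plus strand, ranged from 30.6 to 119 CPM in AB1 IPL (median 103) and from 82.8 to 99.2 CPM in AB1 SC tumors (median 92.8). AB1 IPL tumor 4, the tumor with low long genes, had the 30.6 CPM, and the other 7 lay between 75.6 and 119 CPM. The log2 fold change was 0.0020 (SE 0.19, 95% interval −0.39 to 0.39, edgeR adjusted p = 0.997), and it was 0.11 without tumor 4 (edgeR adjusted p = 0.405). Without the 3 libraries least like their groups (AB1 IPL 2, AB1 IPL 4 and AE17 IPL 5), an alternative chosen after seeing the data, Tgfbr1 was higher in AB1 IPL tumors by 0.19 (edgeR adjusted p = 0.0401) and its site effects differed by 0.40 between models (edgeR adjusted p = 0.0032). In AE17, Tgfbr1 ranged from 86.2 to 123 CPM in IPL (median 94.6) and from 89.1 to 123 CPM in SC tumors (median 107). The ranges nearly coincided (log2 fold change −0.11, SE 0.08, edgeR adjusted p = 0.399).

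Tgfbr2, the gene of the ligand-binding type II kinase at chr9:116084293-116175360 on the minus strand, ranged from 201 to 491 CPM in AB1 IPL (median 297) and from 225 to 279 CPM in AB1 SC tumors (median 242). Of the 8 AB1 IPL tumors 6 were above every SC tumor and 1 was below, with tumor 2 the highest. The log2 fold change was 0.29 (SE 0.14, 95% interval −0.0024 to 0.57, edgeR adjusted p = 0.147). Without AB1 IPL tumor 8, the lowest of its group, it was 0.36 and passed the test (edgeR adjusted p = 0.0405), and without tumor 2 it was 0.17. In AE17, IPL tumors ranged from 234 to 356 CPM (median 259.8) and SC tumors from 207 to 308 CPM (median 273). The groups overlapped, with AE17 IPL tumor 5 (356 CPM) above all SC tumors and AE17 SC tumor 8 (207 CPM) below all IPL tumors, and the log2 fold change was 0.02 (95% interval −0.17 to 0.20, edgeR adjusted p = 0.931).

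Tgfbr3 encodes betaglycan, the co-receptor that presents TGF-beta 2 to TGFBR2 and also binds inhibin, and lies at chr5:107106570-107289629 on the minus strand. AB1 IPL tumors ranged from 99.1 to 232 CPM (median 169) and AB1 SC tumors from 98.0 to 169.7 CPM (median 122). AE17 IPL tumors ranged from 74.3 to 111 CPM (median 95.5) and AE17 SC tumors from 86.0 to 194 CPM (median 106). In AB1, 4 of 8 IPL tumors were above all SC tumors, and in AE17 only 1 of 8 IPL tumors was above the SC median. Neither site difference passed the test, with 0.33 in AB1 (SE 0.16, 95% interval −0.0052 to 0.67, edgeR adjusted p = 0.15) and −0.29 in AE17 (SE 0.14, 95% interval −0.59 to 0.015, edgeR adjusted p = 0.222). Without AB1 IPL tumor 8 the AB1 difference was 0.41 and passed (edgeR adjusted p = 0.0482). The difference between these site effects passed it, at 0.64 (SE 0.22, edgeR interaction test, adjusted p = 0.0379). That call was lost when any 1 of 12 tumors was left out (AB1 IPL 2, 3 or 7, AB1 SC 1, 2, 3, 5 or 7, AE17 IPL 1 or 7, AE17 SC 5 or 6), with edgeR adjusted p values between 0.0505 and 0.0786, although the difference stayed between 0.49 and 0.72 over all 32 such fits. It was also lost with the lane as a covariate (0.87, edgeR adjusted p = 0.187), without the 3 libraries least like their groups (0.61, edgeR adjusted p = 0.0585), without a filter on low counts (0.66, edgeR adjusted p = 0.0544) and with the replicate block (0.62, edgeR adjusted p = 0.0574).

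Ltbp2 encodes a latent TGF-beta binding protein family member of elastic fibers, one that does not itself bind latent TGF-beta, and lies at chr12:84783212-84876532 on the minus strand. AB1 IPL tumors ranged from 32.2 to 84.2 CPM (median 53.1) and AB1 SC tumors from 41.1 to 56.8 CPM (median 52.0). AE17 IPL tumors ranged from 13.6 to 112 CPM (median 67.7) and AE17 SC tumors from 37.6 to 106 CPM (median 72.8). The groups overlapped at both sites, and AE17 IPL tumors held both the lowest value (tumor 1) and the highest (tumor 5) of all 32. The log2 fold change was 0.04 in AB1 (95% interval −0.31 to 0.38, edgeR adjusted p = 0.899) and −0.21 in AE17 (95% interval −0.89 to 0.47, edgeR adjusted p = 0.727). An antisense transcript on the opposite strand shares 764 exonic bases with Ltbp2, and the strand setting of the counting is not given in the sources used here.

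In AE17, 0 of the 7 genes passed the test between IPL and SC tumors, where 5.73% of all genes did. DESeq2 also called 0, where it called 6.21% of all genes. In the edgeR fit 1 of the 7 (Tgfb1) had an unadjusted p under 0.05, as did 25.2% of all genes. With DESeq2 2 of the 7 did, as did 15.8% of all genes. None of the 7 separated the AE17 sites without overlap, and 0.573% of all genes did.

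The models were also compared within each site, with AB1 set against AE17. Among SC tumors 3 of the 7 genes passed the test and 58.3% of all genes did, and among IPL tumors 4 of 7 and 63.4% did. These comparisons share their groups with the site comparisons. No lane held tumors of both models at the same site, so no value within a lane can be given.

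Tgfb2 was lower in AB1 than in AE17 at both sites, with log2 differences of −5.92 in SC tumors (60.5-fold, SE 0.27, edgeR adjusted p = 1.84e-18) and −3.47 in IPL tumors (11.1-fold, SE 0.23, edgeR adjusted p = 1.72e-14). No AB1 tumor reached the AE17 range at either site. Inhbb was lower in AB1, at −0.94 in SC tumors (SE 0.19, edgeR adjusted p = 8.35e-05) and −1.07 in IPL tumors (SE 0.19, edgeR adjusted p = 1.24e-05). For Inhbb the SC groups did not overlap, and 6 of 8 AB1 IPL tumors were below all AE17 IPL tumors. Non-overlapping groups were found for 2 of the 7 genes under the skin, against 30.9% of all genes, and for 1 of 7 in the pleura, against 28.1%.

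Tgfb1 was lower in AB1, at −0.65 in IPL tumors (SE 0.11, edgeR adjusted p = 8.39e-06), with 7 of 8 AB1 tumors below all AE17 tumors. In SC tumors it was lower, at −0.26 (SE 0.11, edgeR adjusted p = 0.0437), and this call was lost when any 1 of AB1 SC 1, 2, 3, 4, 5 or 7 or AE17 SC 1, 2, 3, 4 or 5 was left out (−0.27 to −0.21, edgeR adjusted p between 0.0502 and 0.115), and without a filter on low counts (−0.25, edgeR adjusted p = 0.0766). Tgfbr3 ran the other way and was higher in AB1 IPL than in AE17 IPL tumors by 0.77 (SE 0.16, edgeR adjusted p = 8.24e-05), with all 8 AB1 tumors above the AE17 median. In SC tumors the Tgfbr3 difference was 0.13 (95% interval −0.19 to 0.45, edgeR adjusted p = 0.492). Tgfbr1, Tgfbr2 and Ltbp2 did not pass the test at either site, with differences between −0.54 and 0.18. Fitted on the 16 SC tumors alone, Tgfbr1 (−0.22, edgeR adjusted p = 0.00521) and Ltbp2 (−0.55, edgeR adjusted p = 0.00789) passed, and without the 3 libraries least like their groups Tgfbr1 was higher in AB1 IPL tumors by 0.19 (edgeR adjusted p = 0.0193) and lower in AB1 SC tumors, at −0.21 (edgeR adjusted p = 0.00438). Without AB1 IPL tumor 8 Tgfbr2 was also higher in AB1 IPL tumors, by 0.25 (edgeR adjusted p = 0.0495), and without AE17 SC tumor 3 Ltbp2 was lower in AB1 SC tumors, at −0.63 (edgeR adjusted p = 0.0397).

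With the lane as a covariate, the calls of Tgfb1 at both sites (−0.19, edgeR adjusted p = 0.511 in SC and −0.57, 0.0521 in IPL tumors) and of Inhbb in SC tumors (−0.76, edgeR adjusted p = 0.0974) were lost, with each difference in the same direction. Those of Tgfb2 at both sites and of Inhbb and Tgfbr3 in IPL tumors were not. Since no lane held both models at a site, the lane terms that link the models came from tumors at the other site. The fit assumes that such a term is the same at both sites, which could not be checked.

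**Figure D3:**
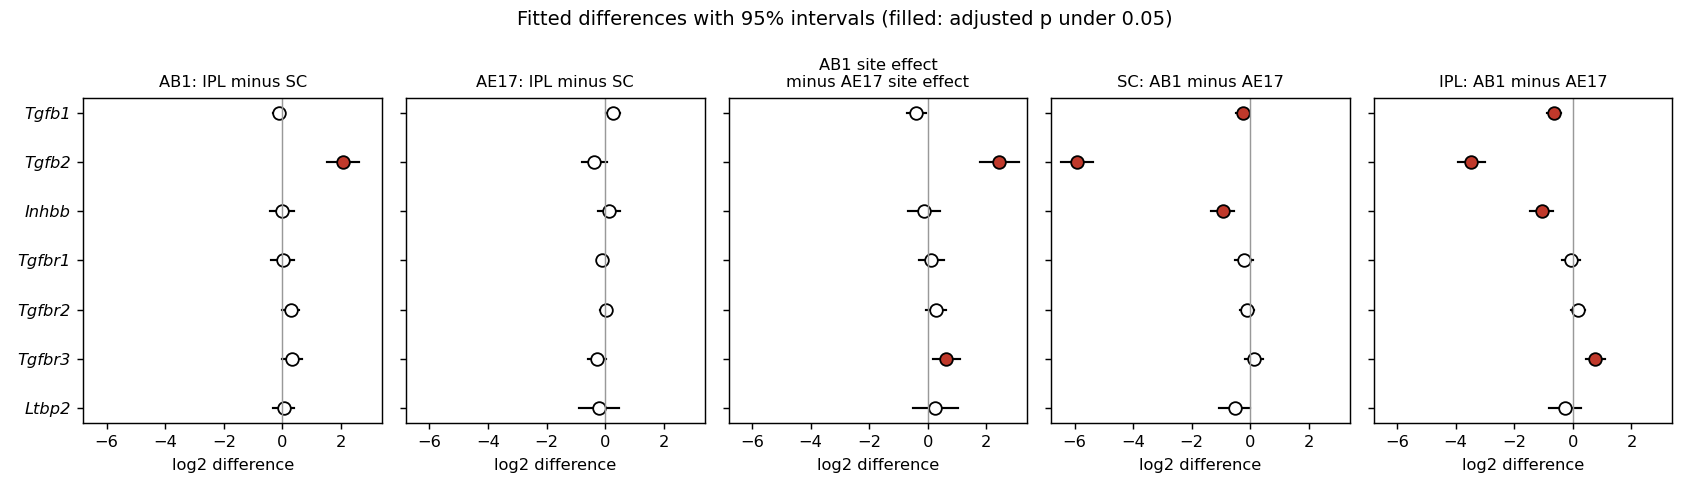
Fitted log2 differences (point) with 95% intervals (line) of the 7 genes in the 5 comparisons, filled where the adjusted p was under 0.05. Tgfb2 is the 1 gene filled in the AB1 site panel, at 2.07, and no gene is filled in the AE17 site panel.

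The wider pathway was read from 6 lists of 69 genes, of which 58 had a row. Between AB1 sites, 16 of 49 genes tested were higher in IPL tumors and 2 lower, where 12.3% of all genes were higher and 10.7% lower. Between AE17 sites, 3 of 51 were higher and 2 lower, where 2.6% and 3.13% of all genes were. The median log2 fold change of the 49 genes in AB1 was 0.15, against −0.0023 over all genes. With the lane as a covariate none of these genes passed the edgeR test at either site, although 10 in each model had an unadjusted p under 0.05, as did 16.7% of all genes in AB1 and 16.1% in AE17. Of all genes, 2.64% in AB1 and 0.00682% in AE17 passed in that fit. DESeq2 without the lane called 22 of 58 higher and 2 lower in AB1 (9.33% and 6.82% of all genes), and 5 of 58 higher and 2 lower in AE17 (3.08% and 3.13% of all genes).

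Among the 10 genes of TGF-beta latency and activation, Ltbp4, a latent TGF-beta binding protein of elastic fibers, rose in AB1 IPL tumors by 0.66 on the log2 scale (edgeR adjusted p = 0.000218). Itgb6, the beta chain of an integrin that activates TGF-beta on epithelial cells, rose by 2.91 (edgeR adjusted p = 0.000812), from a mean of 0.319 ± 0.268 to 2.50 ± 1.57 CPM (SD, n = 8). This size rests on 1 to 13 counts per AB1 SC tumor, around the limit of 3 counts, and on 10 to 98 counts per AB1 IPL tumor. Nrros, which holds latent TGF-beta 1 on myeloid cells, fell by 0.63 (edgeR adjusted p = 0.00269). The summed CPM of 5 macrophage markers was lower in the same tumors, at 1288 to 2462 in AB1 IPL (median 1561) and 1735 to 2724 in AB1 SC (median 2196), with none of the 5 at 0 in any AB1 tumor. That of 4 T cell markers was 8.56 to 38.3 in AB1 IPL and 41.4 to 82.0 in AB1 SC tumors, without overlap and with none at 0, and the part of these cells in the Nrros difference was not tested. The 5 genes that passed in AE17 were all in other lists.

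Of 8 response genes tested, 4 rose in AB1 IPL tumors, where 12.3% of all genes were higher, with a median log2 fold change of 0.54 over the list. As in the other lists, these calls were lost with the lane as a covariate. The matrix genes Fn1 (fibronectin, 0.86), Col1a1 (1.12) and Col3a1 (0.70) were among them, with edgeR adjusted p values of 0.00021, 0.00151 and 0.00475. Col1a1 went from 1013 ± 123 CPM in AB1 SC to 2223 ± 962 CPM in AB1 IPL tumors (SD, n = 8). In AE17 Tagln, a smooth muscle actin-binding protein gene, rose by 1.21 (edgeR adjusted p = 0.0153) and the other 7 did not pass.

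Of the transducers, Smad3 rose in AB1 IPL tumors by 0.44 (edgeR adjusted p = 0.000929), from 71.6 ± 4.51 to 98.3 ± 14.01 CPM (SD, n = 8), and the other 5 tested did not pass. Of 12 inhibitors tested, 4 rose (12.3% of all genes were higher), among them Pmepa1 (0.53), which sequesters SMADs, Chrd (0.96), which binds BMPs, and Smad6 (0.56), with edgeR adjusted p values of 0.00308, 0.0108 and 0.0123. In AE17 Smurf2, a ubiquitin ligase of the pathway, rose by 0.21 (edgeR adjusted p = 0.0472). Of 8 other receptors, 3 rose in AB1 against the same share of all genes, namely Acvr2b (0.49), Acvr1 (0.22) and Eng (0.50). Of the other ligands, Gdf11 rose (0.71) and Bmp2 fell (−0.62) in AB1 IPL tumors, whereas in AE17 IPL tumors Bmp2 (−1.31) and Lefty1 (−0.94) were lower and Gdf15 (1.04) was higher.

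**Figure D4:**
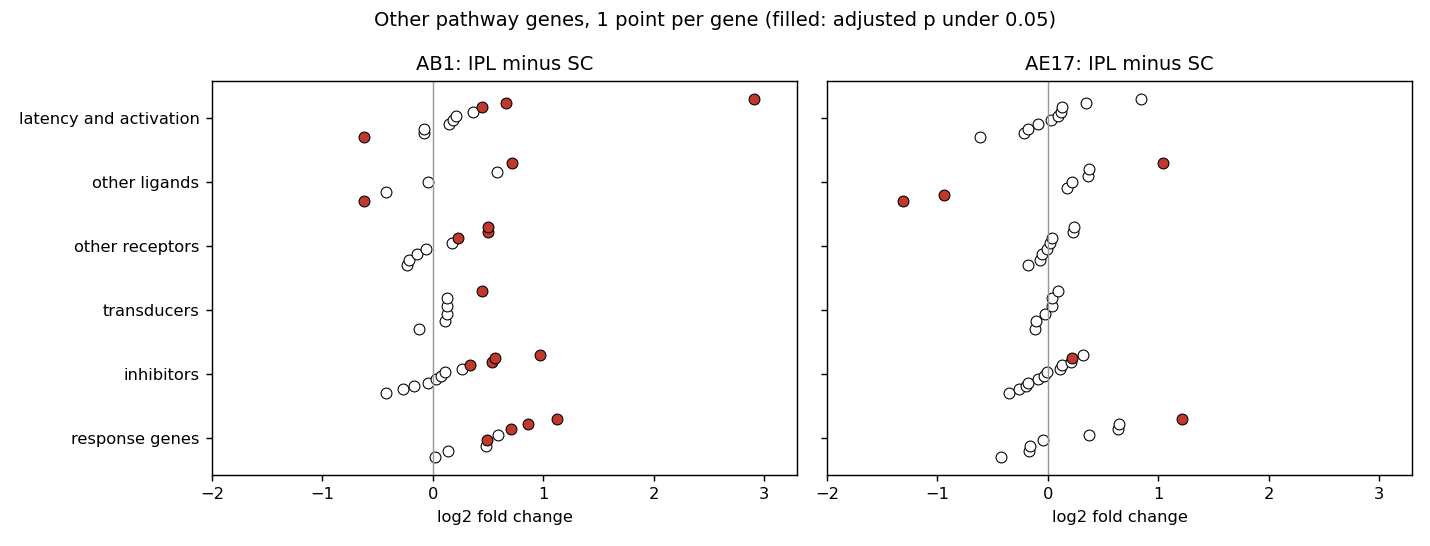
Log2 fold change between IPL and SC tumors of the other pathway genes in AB1 (left) and AE17 (right), with 1 point per gene tested, filled where the adjusted p was under 0.05. In AB1, 16 filled points lie to the right of 0 and 2 to the left, and in AE17 3 lie to the right and 2 to the left.

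Between models, 11 of 53 pathway genes were higher and 24 lower in AB1 SC than in AE17 SC tumors, where 28.6% and 29.7% of all genes were. In the pleura 18 were higher and 23 lower, where 31.6% and 31.8% of all genes were. With the lane as a covariate, 6 were higher and 18 lower in SC tumors (15.4% and 18.2% of all genes in that fit), and 10 were higher and 11 lower in IPL tumors (16.5% and 15.5%). Ltbp4 was higher in AB1 by 2.00 in SC and 2.77 in IPL tumors, and Thbs1, thrombospondin 1, which can activate latent TGF-beta, was lower, at −1.25 and −1.12. Of the 8 response genes, 1 was higher and 5 lower in AB1 SC tumors, and 3 were higher and 5 lower in AB1 IPL tumors. Fn1 was higher in IPL tumors, at 1.22, and Postn, the gene of the matrix protein periostin, was lower in AB1 at both sites, at −3.30 in SC and −3.06 in IPL tumors. Fstl3, which encodes a secreted activin antagonist related to follistatin, was higher in AB1 by 1.60 and 1.57, and Smad5 was lower, at −0.87 and −0.60. The edgeR adjusted p values of these differences were at most 2.58e-06.

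Between the AB1 sites, markers of other cell types differed alongside Tgfb2 and the matrix genes. The summed CPM of 5 fibroblast markers ranged from 386 to 1387 in AB1 IPL (median 754), 324 to 585 in AB1 SC (median 394), 467 to 681 in AE17 IPL (median 541) and 526 to 1137 in AE17 SC tumors (median 654). Of 6 fibroblast markers listed 5 had a row, none of the 5 was at 0 in any tumor, and their part in the Tgfb2 difference was not tested. Within AB1 IPL, the 3 tumors with the lowest sums (386 to 571) had 1.34 to 1.98 CPM of Tgfb2, and the other 5 (749 to 1387) had 2.94 to 4.57 CPM. Within AB1 SC, tumor 6 had the highest sum (585) with 0.525 CPM of Tgfb2 and tumor 3 the lowest (324) with 0.883 CPM. These levels rest on 8 to 18 counts per tumor, and their relation to the sum was not tested. The 5 AB1 SC tumors with sums in the range shared with AB1 IPL (394 to 585) had 0.525 to 0.909 CPM of Tgfb2. For Tgfbr3 the 3 AB1 IPL tumors with the lowest sums had 99.1 to 167 CPM and the other 5 had 133 to 232 CPM.

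The summed CPM of 8 skeletal muscle markers was also higher in AB1 IPL (109.9 to 4514, median 2139.5) than in AB1 SC tumors (54.7 to 508, median 309.8), and it was 57.9 to 808 in AE17 IPL and 45.5 to 1270.3 in AE17 SC tumors. In AB1 the sum of 4 mural cell markers was 180.3 to 259.5 in IPL (median 217) and 147 to 194 in SC tumors (median 156), that of 6 heart muscle markers 2.87 to 49.4 (median 21.98) and 4.34 to 9.21 (median 5.47), and that of 5 adipocyte markers 39.5 to 322 (median 65.7) and 27.7 to 60.2 (median 32.9). Of the heart markers, Myl7 was at 0 in 6 of 8 AB1 IPL and 7 of 8 AB1 SC tumors. Single markers did not all follow their sums. The mural marker Pdgfrb had medians of 154 CPM in AB1 IPL and 104 in AB1 SC tumors, whereas Rgs5 had 39.9 and 47.0. The heart marker Tnni3 was also lower in AB1 IPL, with medians of 2.70 and 4.39 CPM. AB1 IPL tumor 2 had the most Tgfb2 and Tgfbr3 of its group, the highest fibroblast sum and the lowest muscle sum. AE17 SC tumor 6 had the most Tgfb2 and Tgfbr3 of its group with the highest fibroblast (1137), mural cell (635) and muscle (1270.3) sums. AE17 IPL tumor 5 had the least Tgfb1 and the most Tgfbr2 of its group with an adipocyte sum of 901 (group median 33.6) and a heart muscle sum of 222 (group median 22.9). The part of these tissues in the values was not tested.

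**Figure D5:**
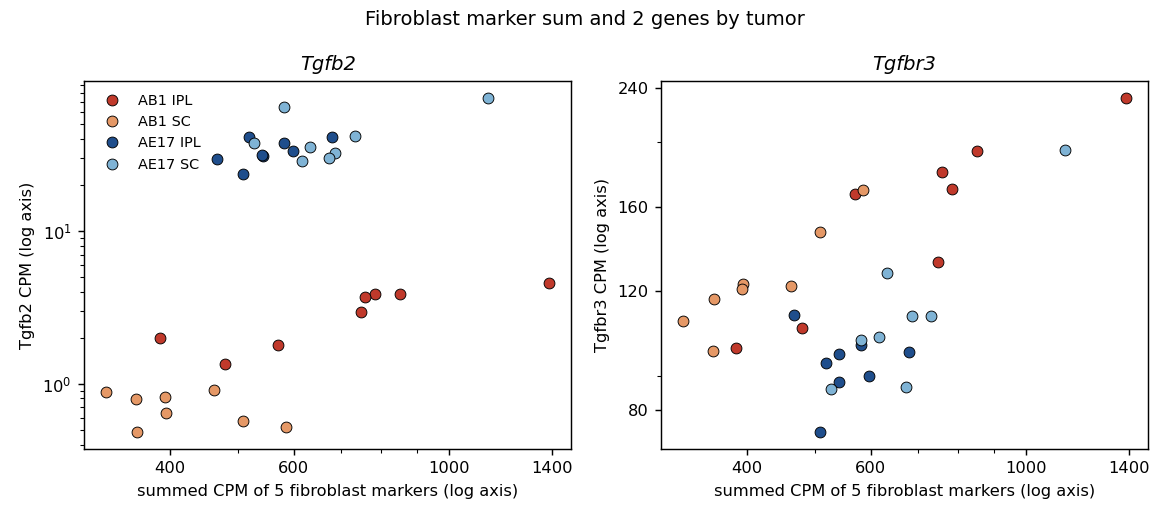
Tgfb2 (left) and Tgfbr3 (right) CPM against the summed CPM of 5 fibroblast markers in each of the 32 tumors (all axes log), colored by group. Within AB1 IPL, the 5 tumors with sums of 749 or more have the most Tgfb2 (2.94 to 4.57 CPM), and AE17 tumors form a separate band above 20 CPM.

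The genes whose log2 CPM followed each of the 7 most closely over the 32 tumors, after removal of the group means, were sought among 11647 genes. Because all genes of a library share its depth and cell content, these correlations are descriptions. They were Tcf7l1 and Ccdc8 for Tgfb2 (Pearson r = 0.78 for both), B4galt5 and Loxl4 for Tgfb1 (0.86 for both) and Mirg and Mst1r for Inhbb (0.75 and 0.74). Tgfbr1 was followed by Brwd3 and by Bmpr2, the BMP type II receptor gene (0.94 for both), and its lowest value of the 32 was that of AB1 IPL tumor 4. Tgfbr2 was followed by Ggt5 and Atp6v0d1 (0.91 and 0.88), Tgfbr3 by Vegfd and Lima1 (0.87 and 0.84), and Ltbp2 by Rap1gap and Bgn, the proteoglycan biglycan (0.83 and 0.78). Among the 7 genes themselves, r lay between −0.54 (Tgfb1 with Tgfb2) and 0.55 (Inhbb with Ltbp2).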

How the data were processed

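RNA from 32 whole tumors was sequenced as 50 bp reads. Per the labels and methods, the authors aligned reads to the mouse genome and deposited 1 table of raw counts per gene. The submitters' processing notes name HISAT2 2.0.4 and bcl2fastq 1.8.4, and the strand setting of the counting is not given in the sources used here. Gene coordinates and exon lengths were taken from GENCODE M21 (GRCm38), which matched 39495 of 39676 gene IDs without their version and 36719 with it, so the build of the counting was not checked. No column of another series was in the table.

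Counts were tested in R 4.3.3 with edgeR 4.0.16 (filterByExpr, TMM, robust glmQLFit, glmQLFTest), two-sided, with Benjamini-Hochberg adjustment over all genes tested and a threshold of 0.05. The 16 tumors of a model entered each site fit, and all 32 tumors entered the interaction and model fits. DESeq2 1.42.0, DESeq2 size factors, no filter, the lane, a replicate block, single lanes and leaving out libraries were alternatives. On simulated counts for the AB1 site comparison (14968 genes), 95.9% of genes changed by a factor of 2 and 100% of those changed by a factor of 4 were called, and for the interaction (15688 genes) 67% and 99% were. These counts had the same dispersion, 0.05, for all genes and groups. In the data the SD over the mean was 5.91% for Tgfb1 in AB1 SC, 39.2% for Tgfb2 in AB1 IPL and 50.1% for Ltbp2 in AE17 IPL tumors. The shares called therefore do not hold for genes with a wider spread.

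Each tumor came from a separate mouse, and p-values measure the spread between these tumors. Within groups, 112 pairs of libraries differed by 5.51 to 135 in chi-square per degree of freedom, so none was a repeat. The genes and lists were chosen with earlier results of these data known. All 7 genes with a row are named, and of each pathway list at most 3 genes per comparison with the smallest adjusted p. Of these, 1 gene is not reported here. Figures were drawn with matplotlib 3.10.9.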

Additional observations from a re-analysis of the deposited data

Results flagged for a closer look

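In groups of 8 tumors, 3 of 28 gene and group sets had an end value far from the rest by Dixon's criterion, which chance meets in about 1 in 20 groups. Tgfb1 in AE17 IPL tumor 5 was 96.2 CPM and the next value 129. Tgfbr2 in the same tumor was 356 CPM, with 284 next. Tgfbr3 in AE17 SC tumor 6 was 194 CPM, with 128 next.

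The site effect differed between AB1 and AE17 by the edgeR interaction test for Tgfb2, by 2.45 on the log2 scale (adjusted p = 2.89e-05), and for Tgfbr3, by 0.64 (adjusted p = 0.0379), as for 20.5% of all genes. The Tgfbr3 call was lost in 12 of 32 fits that left out 1 tumor, with the lane as a covariate, without a filter, with the replicate block and without the 3 libraries least like their groups. All 8 AB1 IPL tumors were above all AB1 SC tumors in Tgfb2.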

How the results depend on the processing

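Of 252 log2 fold changes under other settings that left out no single tumor, 227 kept their direction and side of the threshold, and 54 of 72 counts of genes called kept within 1.5 times. Tgfb2 in AB1 stayed between 1.98 and 2.18 when any 1 tumor was left out. The cause of the changes below was not tested.

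With the lane as a covariate, 386 genes were called in AB1 in place of 3374, and 1 in AE17 in place of 840. For the interaction 117 were called in place of 3212. Between models it was 5268 in SC in place of 9138 and 5008 in IPL tumors in place of 9940. Of the 7 genes described here, 1 was called for the interaction (0.746% of all genes) and 1 in SC tumors (33.6% of all genes). On lane 3 alone AB1 had 169 genes called (1.06% of all genes) and 0 of the 7 (1 at an unadjusted p under 0.05, as were 12.6% of all genes). On lane 1 alone AE17 had 14 genes called, and both fits had fewer tumors. In AE17, DESeq2 called 1768 genes, no filter gave 550, 1 fit of all 32 tumors 1324, and leaving out the 3 libraries least like their groups (chosen after seeing the data) 1263. Without those 3 libraries 3 of the 7 were called in AB1 (25.4% of all genes). Without a filter 1 of the 7 was called for the interaction (9.01% of all genes), and on the 16 SC tumors alone 5 of the 7 were called between models (63.7% of all genes).

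Signs turned for Tgfbr1 and Tgfbr2, whose differences were not past the threshold, in these cases: Tgfbr1 in AB1 (−0.069 with the lane, −0.10 on lane 3), Tgfbr2 in AE17 (−0.010 with the lane, −0.011 on lane 1, −0.059 without the 3 libraries) and Tgfbr1 between IPL tumors (0.19 without the 3 libraries, edgeR adjusted p = 0.0193).

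Leaving out 1 tumor at a time gave 2877 to 3652 genes called in AB1, 316 to 2066 in AE17 (without AE17 IPL 4 and AE17 SC 1; 12 of 16 counts were outside 1.5 times), 2722 to 3664 for the interaction, 8862 to 9201 in SC and 9686 to 10067 in IPL tumors. Of the 7, the number called was 1 to 3 in AB1, 0 in AE17, 1 to 3 for the interaction, 2 to 3 in SC and 4 to 5 in IPL tumors. Ranges that crossed 0 were −0.19 to 0.064 for Inhbb, −0.10 to 0.12 for Ltbp2 and −0.053 to 0.11 for Tgfbr1 in AB1, −0.059 to 0.043 for Tgfbr2 in AE17, and −0.13 to 0.058 for Tgfbr1 between IPL tumors.

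Replicate numbers did not pair the tumors, which came from different mice (mean correlation of same-numbered deviations −0.12 in AB1 and 0.07 in AE17, with 0 and 3 of 8 tumors closest to their own number). With the replicate block Tgfb2 in AB1 was 2.01 (edgeR adjusted p = 4.77e-04), 1 of the 7 was called for the interaction (18% of all genes), Tgfbr3 no longer among them (0.62, edgeR adjusted p = 0.0574), Tgfb1 between SC tumors was −0.25 with an edgeR adjusted p of 0.0654, and Tgfbr1 (−0.077) and Ltbp2 (−0.026) turned sign in AB1.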
